A study of Homo sapiens with 4 samples.

Results

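Prostate cells carry enzymes that build, reduce and oxidise androgens, and 10 of them were followed here at the level of their messenger RNA: SRD5A1, SRD5A3, AKR1C1, AKR1C2, AKR1C3, HSD3B1, HSD17B4, HSD17B6, HSD17B10 and HSD17B11. They were listed by symbol for what they do to steroids and matched to their Ensembl identifiers, which gave 10 of the 60880 genes in the count tables. RNA-Seq counts came from LNCaP95 cells (2 libraries, replicates 1 and 2) and from LN95(KO) cells (2 libraries, replicates 3 and 4). LNCaP95 is a subline of the human prostate cancer line LNCaP kept without androgen, with wild-type UGT2B17. LN95(KO) cells were derived from it by removing UGT2B17 with CRISPR. Both lines grew in medium whose serum was charcoal-stripped, which leaves it poor in steroids, and neither received a treatment. The labels do not say how many knockout clones were used, and the series text names LNCaP rather than LNCaP95 as the parent of the knockout. All 4 libraries are from a cell line, so they hold no other tissue of a host.

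UGT2B17 attaches glucuronic acid to testosterone, dihydrotestosterone (DHT) and their reduced products, which makes them soluble and inactive. The 10 enzymes act before that step. HSD3B1 turns adrenal dehydroepiandrosterone into androstenedione, AKR1C3 reduces androstenedione to testosterone, and SRD5A1 reduces testosterone to DHT. AKR1C2 and AKR1C1 reduce DHT to androstanediols, and the HSD17B enzymes oxidise or reduce the same small set of steroids at the 17 or 3 position, several of them with main roles outside androgen metabolism. In castration-resistant prostate cancer this interconversion supplies active androgen when the testis no longer does.

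Among the 9 enzymes with enough reads for a test, the largest difference was in HSD17B11, which was 4.69-fold higher in LN95(KO) than in LNCaP95. The 3 AKR1C genes were at low counts in every library and were all higher in LN95(KO), by 1.69- to 2.06-fold. HSD3B1 had no read in LNCaP95 and 33 reads in LN95(KO). Smaller differences of 1.26- to 1.37-fold were found for SRD5A1 and HSD17B10, which were higher in LN95(KO), and for SRD5A3, which was lower, while HSD17B4 and HSD17B6 did not pass the test.

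In the count tables the 4 libraries held 17330338 to 18813193 gene reads and 23775 to 24173 detected genes. UGT2B17, the gene targeted (GRCh37 chr4:69402891-69442131, minus strand), had 2788 and 2748 counts in LNCaP95 against 21 and 20 in LN95(KO). Its log2 fold change was -7.04 (SE 0.10, edgeR adjusted p = 1.18e-18). Reads that were not aligned were 3.85% and 3.96% of entries in the LNCaP95 libraries against 8.05% and 7.71% in those of LN95(KO), and their part in the differences was not tested. Of the prostate luminal markers examined, 11 of 11 passed the filter on low counts. KLK3, KLK2 and TMPRSS2 were among those called higher in LN95(KO), and the summed level of the luminal markers was 3674 and 3703 CPM (counts scaled by library size) in LNCaP95 against 4490 and 4293 CPM in LN95(KO). The summed basal markers were at 21.7 and 24.2 against 30.0 and 30.7 CPM, the neuroendocrine markers at 7.53 and 8.68 against 2.49 and 2.36 CPM and the stromal markers at 35.8 and 34.6 against 42.0 and 38.6 CPM, and 5 of 6 immune markers had no more than 3 counts in any library. The stromal sum hides opposite changes. Of 5 stromal markers tested, 1 was called higher (PDGFRB, 22 and 18 against 44 and 44 counts) and 1 lower (LUM, 24 and 19 against 0 and 0 counts). LUM passed the filter only through its LNCaP95 counts. The part of these markers in the differences between the enzymes was not tested. Of 6 markers of adrenal cortex and Leydig cells, the cells with the full steroid pathway, 5 had no read in any library (NR5A1, MC2R, INSL3, LHCGR and MRAP), and INHA had 4 and 1 counts against 0 and 0.

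Genes were compared with the quasi-likelihood test of edgeR on raw counts, fitted to all 15626 genes that passed a filter on low counts, with Benjamini-Hochberg adjustment over those genes. A gene was called when its adjusted p was under 0.05 and its fold change over 2. In the text, a gene is said to have risen or fallen when its adjusted p was under 0.05, whether or not it reached that fold. Log2 fold changes are LN95(KO) over LNCaP95 and levels are CPM scaled with TMM factors, as mean ± SD of 2 libraries. Nothing in the labels says that the 2 libraries of a group came from separate cultures, so the p-values measure the spread between these libraries only. The smallest two-sided p that a permutation of 2 against 2 libraries can give is 0.333. In bulk RNA, fewer cells with a transcript and less transcript in each cell cannot be told apart.

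Of the 10 enzymes, 9 passed the filter, and 2 of these were called, HSD17B11 and AKR1C2, both higher in LN95(KO). That is 22.2% of the members tested, beside 18.0% of all genes tested. Among all genes, 8.86% were called higher and 9.13% lower. With no fold requirement, 6 of the 9 rose and 1 fell, whereas 59.8% of all genes passed that looser rule, 29.8% higher and 30.1% lower. The 2 groups did not overlap for 8 of the 9 tested members, beside 79.8% of all genes tested. The median log2 fold change was 0.46 over the 9 members and -0.01 over all genes. The shares called and without overlap lie near the background. More members rose and fewer fell than among all genes, over 9 genes that were not drawn at random, and nothing is read from that split.

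**Figure D1:**
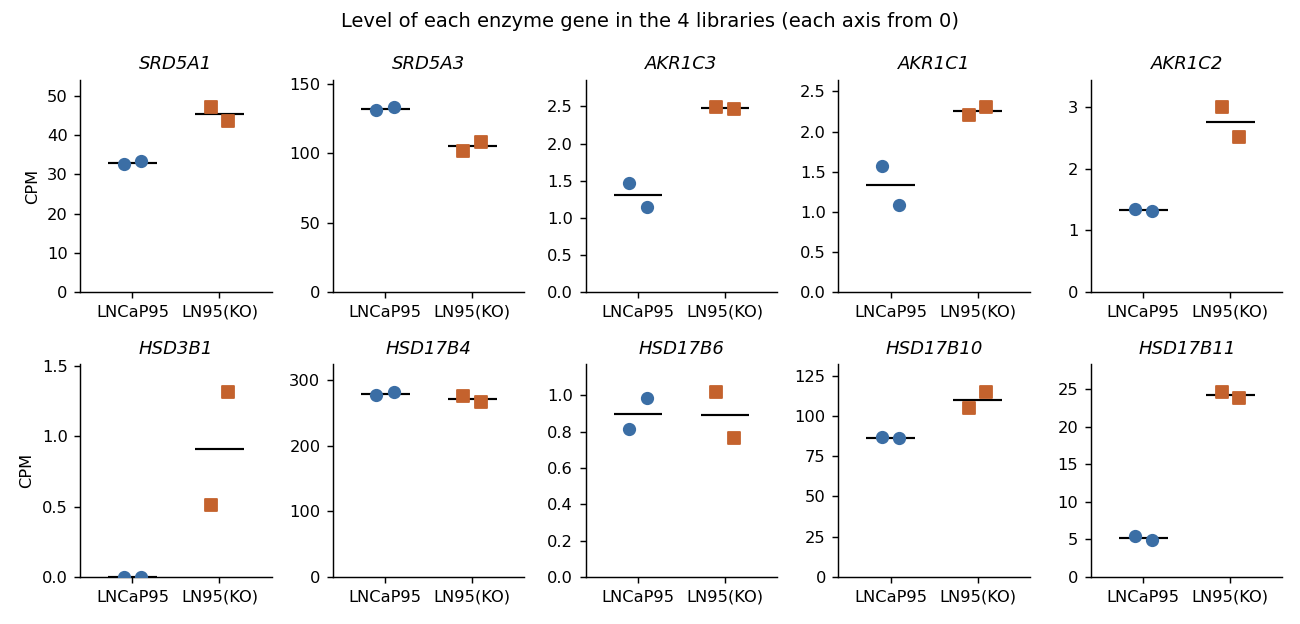
Level of each of the 10 enzymes in every library, in CPM, with 1 panel per gene and each axis starting at 0. Circles are LNCaP95 libraries, squares are LN95(KO) libraries and the bar is the group mean of 2 libraries. HSD17B11 moves from 5.17 to 24.2 CPM, the libraries of the 3 AKR1C genes sit between 1.09 and 2.99 CPM, and HSD3B1 has 0 CPM in both LNCaP95 libraries.

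The steroid reductases were taken first. SRD5A1 (ENSG00000145545) reduces testosterone to DHT and is the form of the enzyme that prostate cancers with little androgen are known to use. It lies on GRCh37 chr5:6633540-6674499, plus strand, and its exons are shared with no other gene. SRD5A1 had 602 and 610 counts in LNCaP95 against 833 and 794 in LN95(KO), or 33.0 ± 0.487 and 45.3 ± 2.51 CPM. Both LN95(KO) libraries were above both LNCaP95 libraries. The log2 fold change was 0.46 (SE 0.07, 95% interval 0.31 to 0.61, edgeR adjusted p = 3.07e-05), which is 1.37-fold and under the fold needed for a call.

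SRD5A3 (ENSG00000128039), named for the same family, is best known for reducing polyprenol to dolichol, the lipid on which N-linked sugars are built. It lies on GRCh37 chr4:56212380-56239267, plus strand. SRD5A3 had 2421 and 2433 counts in LNCaP95 against 1802 and 1966 in LN95(KO), or 132 ± 1.18 and 105 ± 4.19 CPM. It was the 1 member that fell, with a log2 fold change of -0.33 (SE 0.05, 95% interval -0.44 to -0.22, edgeR adjusted p = 3.44e-05). Other genes cover 34.7% of its exon bases, and its antisense neighbour SRD5A3-AS1 had only 50 and 50 counts against 41 and 40. Reads were counted without strand, and the counter drops reads on exons shared by genes of its own annotation. The 34.7% comes from a later annotation, so the part of SRD5A3 left out of its counts may be smaller. Of its transcript windows of 100 bases, 9.4% were shared with SRD5A3-AS1 and 21.2% with another gene. Whether that gene was in the counting annotation was not checked.

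The reductases therefore moved in opposite directions. In reads, the ratio of SRD5A1 to SRD5A3 within a library was 0.249 and 0.251 in LNCaP95 against 0.462 and 0.404 in LN95(KO). The log2 fold changes differed by 0.79 (SE 0.09). SRD5A2, the reductase of normal prostate stroma, was outside the test, with 1 and 3 counts in LNCaP95 against 2 and 1 in LN95(KO).

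The aldo-keto reductases AKR1C1, AKR1C2 and AKR1C3 stand next to each other on chromosome 10 and are close copies. Their similarity bears on every count given for them, so a stretch of their coding sequences is shown. Each coding sequence has 972 bases. AKR1C1 and AKR1C2 were 98% identical with 19 differing bases and an identical run of up to 189 bases, AKR1C1 and AKR1C3 were 91.5% identical with 83 differing bases, and AKR1C2 and AKR1C3 were 91% identical with 87. The 60 bases below, coding positions 103 to 162 of GENCODE 44 transcripts on GRCh37, hold 10 of the differences between AKR1C1 and AKR1C2, and capitals mark positions where the 3 genes are not all alike.
AKR1C1: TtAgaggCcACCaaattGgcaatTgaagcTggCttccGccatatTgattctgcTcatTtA
AKR1C2: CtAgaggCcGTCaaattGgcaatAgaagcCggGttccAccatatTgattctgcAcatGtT
AKR1C3: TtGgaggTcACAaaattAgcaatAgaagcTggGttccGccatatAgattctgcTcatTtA

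A read that falls in such a stretch can be given to its gene, but a read from an identical stretch cannot. Over all transcripts, 13.6% of AKR1C1 windows of 100 bases and 20.1% of AKR1C2 windows were found in another gene's transcripts as well, nearly all of them in each other. For AKR1C3 the share was 2%. These shares are over all annotated transcripts, and the share within the coding sequence alone, where AKR1C1 and AKR1C2 are 98% identical, was not computed. Reads that align more than once are left out by the counter, so the counts of AKR1C1 and AKR1C2 are uncertain by what was lost there, whereas AKR1C3 is little affected.

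AKR1C3 (ENSG00000196139; GRCh37 chr10:5077546-5149878, plus strand) makes testosterone from androstenedione and also reduces prostaglandins. It had 27 and 21 counts in LNCaP95 against 44 and 45 in LN95(KO), or 1.31 ± 0.224 and 2.48 ± 0.0142 CPM. The log2 fold change was 0.92 (SE 0.26, 95% interval 0.37 to 1.47, edgeR adjusted p = 0.00539). AKR1C3 rose by 1.89-fold and was not called.

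AKR1C2 (ENSG00000151632; GRCh37 chr10:5029967-5060223, minus strand) reduces DHT to the weak 3α-androstanediol. It had 25 and 24 counts in LNCaP95 against 53 and 46 in LN95(KO), or 1.33 ± 0.0312 and 2.76 ± 0.335 CPM. The log2 fold change was 1.04 (SE 0.25, 95% interval 0.52 to 1.57, edgeR adjusted p = 0.00167). AKR1C2 was called at 2.06-fold, just over the threshold, and the call was lost without LN95(KO) replicate 3, where the log2 fold change was 0.92, and with DESeq2, where the adjusted p was 0.0762.

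AKR1C1 (ENSG00000187134; GRCh37 chr10:5005445-5025475, plus strand) prefers progesterone and also reduces DHT. It had 29 and 20 counts in LNCaP95 against 39 and 42 in LN95(KO), or 1.33 ± 0.339 and 2.25 ± 0.0693 CPM. The log2 fold change was 0.75 (SE 0.27, 95% interval 0.18 to 1.33, edgeR adjusted p = 0.0232). AKR1C1 rose by 1.69-fold and was not called. Without LNCaP95 replicate 1, which had the higher AKR1C1 and AKR1C3 counts of its group, both genes were called, at log2 fold changes of 1.04 and 1.11. Without LNCaP95 replicate 2, neither passed the test, at 0.52 (edgeR adjusted p = 0.209) for AKR1C1 and 0.76 (edgeR adjusted p = 0.0575) for AKR1C3. AKR1C1 was also lost without LN95(KO) replicate 3 or 4 (edgeR adjusted p = 0.0682 and 0.1), and DESeq2 passed neither gene (adjusted p = 0.272 for AKR1C1 and 0.146 for AKR1C3). The rises of AKR1C1 and AKR1C3 therefore rest on single libraries and on the tool.

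The 3 intervals overlap widely, so the AKR1C genes could not be ranked by their change. Summed over the 3 genes, which sets aside how reads were split among them, there were 81 and 65 counts in LNCaP95 against 136 and 133 in LN95(KO). Reads left out because they align more than once are missing from this sum too. The sum was 3.97 ± 0.594 against 7.49 ± 0.280 CPM, a ratio of 1.89, and the groups did not overlap. This sum was chosen after the single values were seen and was not tested. The fourth gene of the cluster, AKR1C4, an enzyme of liver, had 0, 0, 0 and 1 counts.

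The AKR1C1 and AKR1C2 genes also have near-identical starts, shown here for that likeness. AKR1C3 rose as well, and its upstream windows were not compared with these. The part of the shared start in the rises was not tested. The windows are the 250 bases before the annotated start in RefSeq on GRCh38.p14, a later build than that of the counts, written 5′ to 3′ on the gene's own strand. AKR1C1 is at chr10:4963165-4963414, plus strand, and AKR1C2 at chr10:5003858-5004107, minus strand. With an offset of 4 bases, 245 of 246 aligned bases were identical (99.6%).
AKR1C1: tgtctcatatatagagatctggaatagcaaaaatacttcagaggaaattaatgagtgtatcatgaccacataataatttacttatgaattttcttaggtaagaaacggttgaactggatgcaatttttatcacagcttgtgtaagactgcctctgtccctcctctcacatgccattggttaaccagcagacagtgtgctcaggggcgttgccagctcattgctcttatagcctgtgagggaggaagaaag
AKR1C2: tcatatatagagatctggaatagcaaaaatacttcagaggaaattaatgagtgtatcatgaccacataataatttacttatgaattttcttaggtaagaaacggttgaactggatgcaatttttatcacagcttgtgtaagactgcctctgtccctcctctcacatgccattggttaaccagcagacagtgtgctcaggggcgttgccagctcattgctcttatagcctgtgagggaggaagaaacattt

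A motif was looked for on both strands in these windows for all 10 members. The core of the antioxidant response element, TGACNNNGC, was present in 13.3% of 35116 promoter windows searched in the same way. Among the members, only the SRD5A3 window had a match, 22 bases before the start. These are letter matches and no binding was measured.

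**Figure D2:**
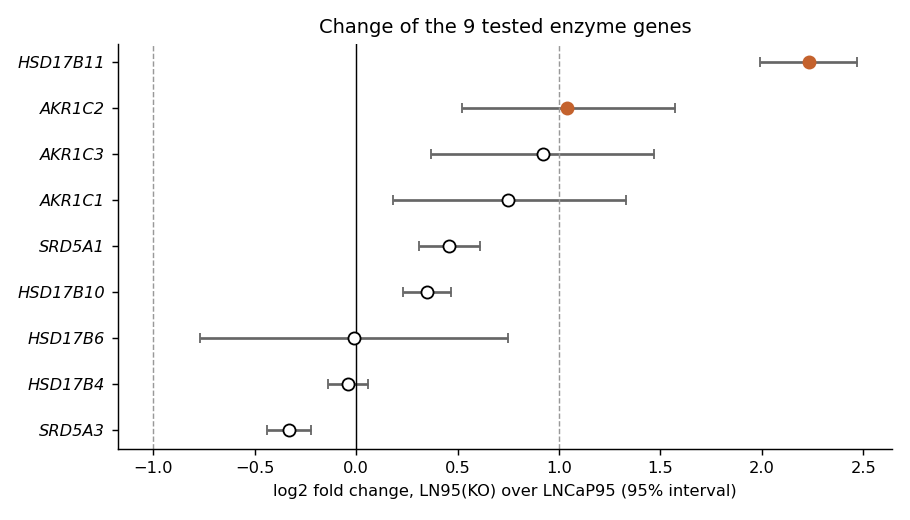
Log2 fold change, LN95(KO) over LNCaP95, of the 9 enzymes tested, with 95% intervals as bars, dashed lines at a 2-fold change either way and filled points for called genes. HSD17B11 at 2.23 lies clear of the line, AKR1C2 at 1.04 sits on it, and the HSD17B6 interval of -0.77 to 0.75 spans 0.

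HSD3B1 (ENSG00000203857; GRCh37 chr1:120049821-120057677, plus strand) converts dehydroepiandrosterone to androstenedione, the gateway through which adrenal steroids enter the androgen pathway. It had 0 and 0 counts in LNCaP95 against 9 and 24 in LN95(KO), or 0.509 and 1.31 CPM. No read in a library leaves room for up to 3 counts, or 0.159 to 0.173 CPM at these depths, for counting error only. Taken against 3 counts over the LNCaP95 group, HSD3B1 was at least 11.3-fold higher in LN95(KO). This bound was 6.23-fold without LN95(KO) replicate 4 and 16.1-fold without replicate 3. The gene did not pass the filter with all 4 libraries, and with a library left out it passed only where LN95(KO) replicate 4 remained, so no p is given for it. HSD3B2, its close copy from adrenal and gonad, had 0 counts in all 4 libraries, and 0.17% of HSD3B1 windows of 100 bases were shared with it.

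HSD17B11 (ENSG00000198189; GRCh37 chr4:88257667-88312340, minus strand) is a lipid droplet enzyme that oxidises 3α-androstanediol to androsterone. It had 101 and 89 counts in LNCaP95 against 436 and 435 in LN95(KO), or 5.17 ± 0.433 and 24.2 ± 0.563 CPM. The groups were far apart and the 2 libraries within each were close. The log2 fold change was 2.23 (SE 0.11, 95% interval 1.99 to 2.47, edgeR adjusted p = 2.15e-11), and it was 2.14 to 2.32 over all 12 alternatives, each of which kept the call. Of all genes tested, 97% had a lower log2 fold change. HSD17B13, its neighbour and closest relative, had 0 and 0 counts against 1 and 1. Its upstream window in RefSeq on GRCh38.p14 is shown because this gene had the largest difference of the 9 members tested. It spans chr4:87391189-87391438, minus strand, and does not contain TGACNNNGC.
HSD17B11: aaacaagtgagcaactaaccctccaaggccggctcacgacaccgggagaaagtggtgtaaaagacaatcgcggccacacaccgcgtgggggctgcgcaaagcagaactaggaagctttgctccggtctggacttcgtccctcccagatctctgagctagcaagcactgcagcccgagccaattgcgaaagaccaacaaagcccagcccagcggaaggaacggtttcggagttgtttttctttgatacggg

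HSD17B10 (ENSG00000072506; GRCh37 chrX:53458206-53461317, minus strand) is a mitochondrial dehydrogenase of isoleucine breakdown and a subunit of mitochondrial RNase P, and it can oxidise 3α-androstanediol back to DHT. It had 1602 and 1574 counts in LNCaP95 against 1861 and 2094 in LN95(KO), or 86.4 ± 0.608 and 110 ± 6.79 CPM. It rose by 1.27-fold, with a log2 fold change of 0.35 (SE 0.06, 95% interval 0.23 to 0.47, edgeR adjusted p = 5.03e-05). The LN95(KO) libraries differed from each other by more than the LNCaP95 libraries did, and the groups did not overlap.

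HSD17B4 (ENSG00000133835; GRCh37 chr5:118788160-118972894, plus strand) is a peroxisomal enzyme of fatty acid oxidation that also oxidises estradiol. It took 47.2% to 51.9% of the members' reads in each library, with 5123 and 5163 counts in LNCaP95 against 4892 and 4880 in LN95(KO). Its level was 280 ± 3.06 and 272 ± 6.35 CPM. The log2 fold change was -0.04 (SE 0.05, 95% interval -0.14 to 0.06, edgeR adjusted p = 0.471). The sign of this small value turned when library totals were used for scaling (0.01).

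HSD17B6 (ENSG00000025423; GRCh37 chr12:57145945-57181574, plus strand) oxidises 3α-androstanediol to DHT in the backdoor route of androgen synthesis. It had 15 and 18 counts in LNCaP95 against 18 and 14 in LN95(KO), or 0.898 ± 0.120 and 0.892 ± 0.177 CPM. The groups overlapped, with a log2 fold change of -0.01 (SE 0.36, edgeR adjusted p = 0.98). The 95% interval of -0.77 to 0.75 is wide, so a change of the size seen for AKR1C1 was at the edge of what these counts could show. PRIM1 on the opposite strand covers 5.81% of its exon bases and rose in LN95(KO). The counter drops reads that fall on both genes, so the HSD17B6 counts leave out that stretch.

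Within a library, ratios of reads set these dehydrogenases against each other without reference to library size. The ratio of HSD17B11 to HSD17B4 was 0.0197 and 0.0172 in LNCaP95 against 0.0891 and 0.0891 in LN95(KO), a difference of log2 fold changes of 2.27 (SE 0.12). For HSD17B10 over HSD17B4 the ratio was 0.313 and 0.305 against 0.380 and 0.429, a difference of 0.39 (SE 0.07). AKR1C2 over HSD17B6, which remove and restore DHT, was 1.67 and 1.33 against 2.94 and 3.29, a difference of 1.06 (SE 0.44) that rests on few counts.

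Levels were compared between genes as CPM per kilobase of merged exons. In LNCaP95 the order was HSD17B10 (30.6 ± 0.215), SRD5A3 (17.1 ± 0.153), HSD17B4 (11.2 ± 0.123), SRD5A1 (4.32 ± 0.0638) and HSD17B11 (2.22 ± 0.186). HSD17B6 (0.395 ± 0.0529) and AKR1C3 (0.334 ± 0.0572) followed and overlapped, then AKR1C2 (0.219 ± 0.00513), AKR1C1 (0.152 ± 0.0387) and HSD3B1 (0). In LN95(KO), HSD17B11 at 10.4 ± 0.242 stood above SRD5A1 at 5.94 ± 0.329. With this length it was just under HSD17B4 at 10.9 ± 0.255, and the libraries of these neighbours did not overlap. Below SRD5A1, AKR1C3 was at 0.633 ± 0.00363, and AKR1C2 (0.453 ± 0.0551), HSD17B6 (0.393 ± 0.0778), HSD3B1 (0.373 ± 0.234) and AKR1C1 (0.257 ± 0.00791) overlapped, each with the next.

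Among all genes tested, the HSD17B11 level per kilobase stood at the 39.5th percentile in LNCaP95 and the 74.3rd in LN95(KO). AKR1C1, AKR1C2 and AKR1C3 stood between the 5.43rd and 11.6th percentiles in LNCaP95 and between the 9.63rd and 19.4th in LN95(KO), so they stayed among the low genes in both. The order of the top members depends on the length used. With the canonical transcript, a choice made after seeing the data, HSD17B4 stood first in LNCaP95 at 106 ± 1.16 CPM per kilobase above HSD17B10 at 90.5 ± 0.637, and HSD17B10 stood first in LN95(KO) at 115 ± 7.12 above HSD17B4 at 103.5 ± 2.42. HSD17B11 was above SRD5A1 in LN95(KO) and below it in LNCaP95 under each of the 3 lengths. Its closeness to HSD17B4 in LN95(KO) was seen with merged exons only. With the canonical transcript HSD17B11 was at 13.6 against 103.5 for HSD17B4, and with the longest transcript at 13.6 against 22.8.

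**Figure D3:**
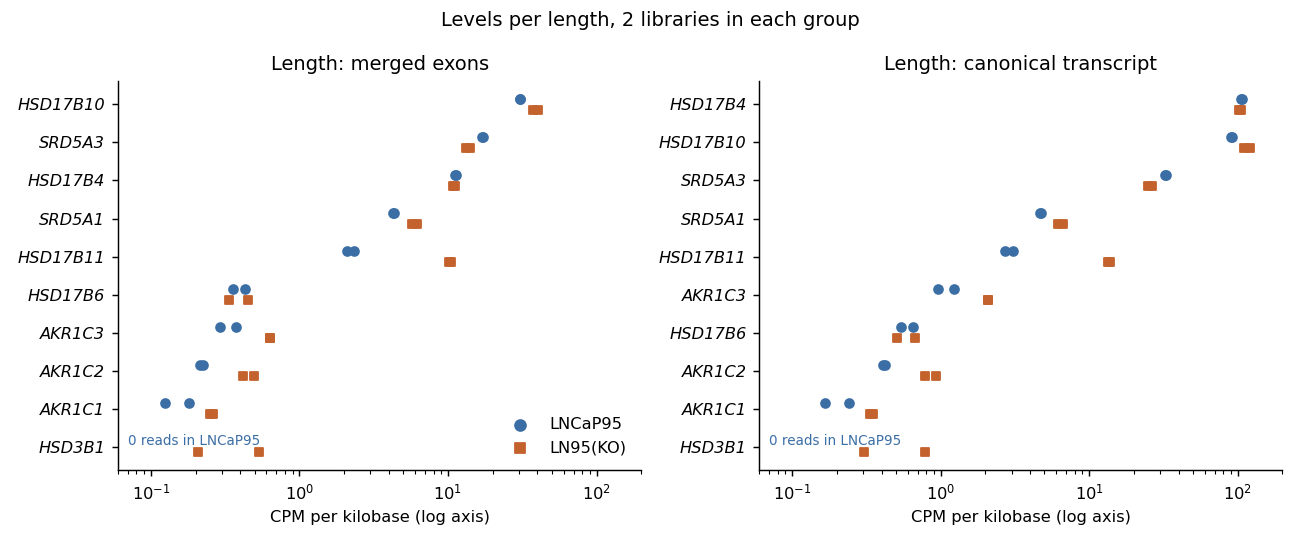
Level of each enzyme in CPM per kilobase on a log axis, with merged exons as length on the left and the canonical transcript on the right. Circles are LNCaP95 libraries and squares LN95(KO) libraries, and the LNCaP95 libraries of HSD3B1, at 0, are given in words. HSD17B11 passes SRD5A1 between the groups (2.22 to 10.4 against 4.32 to 5.94 with merged exons), and the top place in LNCaP95 changes with the length, while HSD17B10 is at the top in LN95(KO) in both panels.

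The rest of the steroid pathway was described from 8 lists of 66 further genes. Of these, 30 had no more than 3 counts in any library and 32 passed the filter. Of the 32, 5 were called higher and 1 lower, which is 18.8%, beside 18.0% of all genes. Among those called higher, CYP11A1 and AKR1B1 passed the filter only through their LN95(KO) counts. The median log2 fold change of the 32 was 0.12. Where a gene is named for the highest level of its list, this is the mean CPM per kilobase of merged exons over the 4 libraries.

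At the entry of the pathway, CYP11A1, which cleaves the cholesterol side chain to make pregnenolone, had 0 and 0 counts in LNCaP95 against 47 and 32 in LN95(KO). It was at least 26.9-fold higher. It passed the filter on low counts only through its LN95(KO) counts, so no p is given for it. It was the 1 gene called of 5 tested in the list of cholesterol import and side-chain cleavage, where the median was 0.62. TSPO, a cholesterol-binding protein of the outer mitochondrial membrane with the highest level of that list, rose without a call, from 958 and 930 to 1389 and 1710 counts (log2 fold change 0.75, SE 0.07, edgeR adjusted p = 1.51e-07). STAR, which brings cholesterol into mitochondria in adrenal and gonad, had 0 and 0 against 2 and 2 counts.

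CYP17A1, the enzyme that makes dehydroepiandrosterone from pregnenolone and the target of abiraterone, had 0, 1, 3 and 1 counts and was not tested. Another gene covers 41.9% of its exon bases. Among its partners, CYB5A, the cytochrome b5 that favours its lyase step, was called higher, with 1985 and 1860 counts in LNCaP95 against 4434 and 4953 in LN95(KO). The CYB5A log2 fold change was 1.32 (SE 0.06, edgeR adjusted p = 1.46e-12). CYB5R3, the reductase of cytochrome b5, had the highest level of the list, although CYB5A stood above it in LN95(KO), and was at -0.01 (SE 0.05, edgeR adjusted p = 0.904).

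Of 12 other 3β- and 17β-hydroxysteroid dehydrogenases, 7 were tested and 1 was called, in the lower direction, while 2 rose and 2 fell at any fold. HSD17B14, an oxidising dehydrogenase, had 57 and 45 counts in LNCaP95 against 20 and 12 in LN95(KO), with a log2 fold change of -1.63 (SE 0.30, edgeR adjusted p = 0.000146). HSDL2, a peroxisomal relative with the highest level of the list, rose by 0.54 on the log2 scale (SE 0.05, edgeR adjusted p = 1.24e-07). HSD17B3, the enzyme that makes testosterone in the testis, and HSD17B2, which inactivates it, had no read in any library, as did HSD3B2 and HSD17B8. For HSD17B3 this may cover few of its exon bases, since 77.7% are shared with other genes in a later annotation than that of the counts. Reads are dropped only where those genes were also in the counting annotation.

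Of 8 other steroid reductases and 3α-hydroxysteroid dehydrogenases, 3 were tested and RDH16 was called higher. RDH16, a retinol dehydrogenase that also oxidises 3α-androstanediol, had 17 and 15 counts against 34 and 43 (log2 fold change 1.29, SE 0.29, edgeR adjusted p = 0.00112), and DESeq2 did not call it. RDH11, an abundant retinal reductase of prostate epithelium, fell by 0.19 on the log2 scale (SE 0.05, edgeR adjusted p = 0.00313), which did not pass without LNCaP95 replicate 1 (edgeR adjusted p = 0.0819). In the list of aromatase, corticosteroid enzymes and steroid hydroxylases, 3 of 13 were tested. CYP3A5, which hydroxylates testosterone, was called higher, with 34 and 33 counts against 96 and 88 (1.49, SE 0.20, edgeR adjusted p = 6.89e-06), and HSD11B2, which inactivates cortisol, rose by 0.32 (SE 0.07, edgeR adjusted p = 0.000699).

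Sulfation had 6 tested genes of 8, of which 0 were called by edgeR and 0 by DESeq2, while 3 had an unadjusted p under 0.05, 1 of them higher and 2 lower. BPNT1, which clears the by-product of sulfation and had the highest level of the list, was at -0.16 (SE 0.06, edgeR adjusted p = 0.0261), which did not pass with DESeq2 (adjusted p 0.125), with library totals in edgeR (adjusted p 0.13) or in 3 of 4 edgeR fits with a library left out (adjusted p 0.0809 to 0.18). The largest values of the list were 0.84 for SULT2B1 and -0.43 for SUMF1, named after their values were seen. SULT2B1, which sulfates cholesterol, had 135 and 123 counts against 199 and 252 (SE 0.14, edgeR adjusted p = 4.6e-05), and SUMF1, which activates sulfatases, had 950 and 978 against 696 and 705 (SE 0.07, edgeR adjusted p = 2.64e-05). None of 5 steroid importers passed the filter, and SLCO1B1, at the highest level of them, had 2, 0, 1 and 0 counts. Of 8 other aldo-keto reductases 4 were tested. AKR1B1, aldose reductase, was called higher from 5 and 4 to 11 and 12 counts (1.36, SE 0.52), a call lost in 7 of 12 alternatives. AKR1B1 passed the filter only through its LN95(KO) counts, so no p is given for it. AKR1A1, the aldehyde reductase with the highest level, rose by 0.49 on the log2 scale (SE 0.06, edgeR adjusted p = 1.78e-06).

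AKR1C1, AKR1C2 and AKR1C3 are known targets of NRF2, the factor that answers oxidative stress, so 25 other NRF2 targets were listed beside them. Of these, 21 were tested and 1 was called, which is 4.76% beside 18.0% of all genes. At any fold 8 rose and 5 fell, and the median log2 fold change was 0.08. FTH1, the ferritin heavy chain, had the highest level of the list over the 4 libraries and fell by 0.32 on the log2 scale (SE 0.05, edgeR adjusted p = 3.04e-05), although other genes cover 63.2% of its exon bases.

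**Figure D4:**
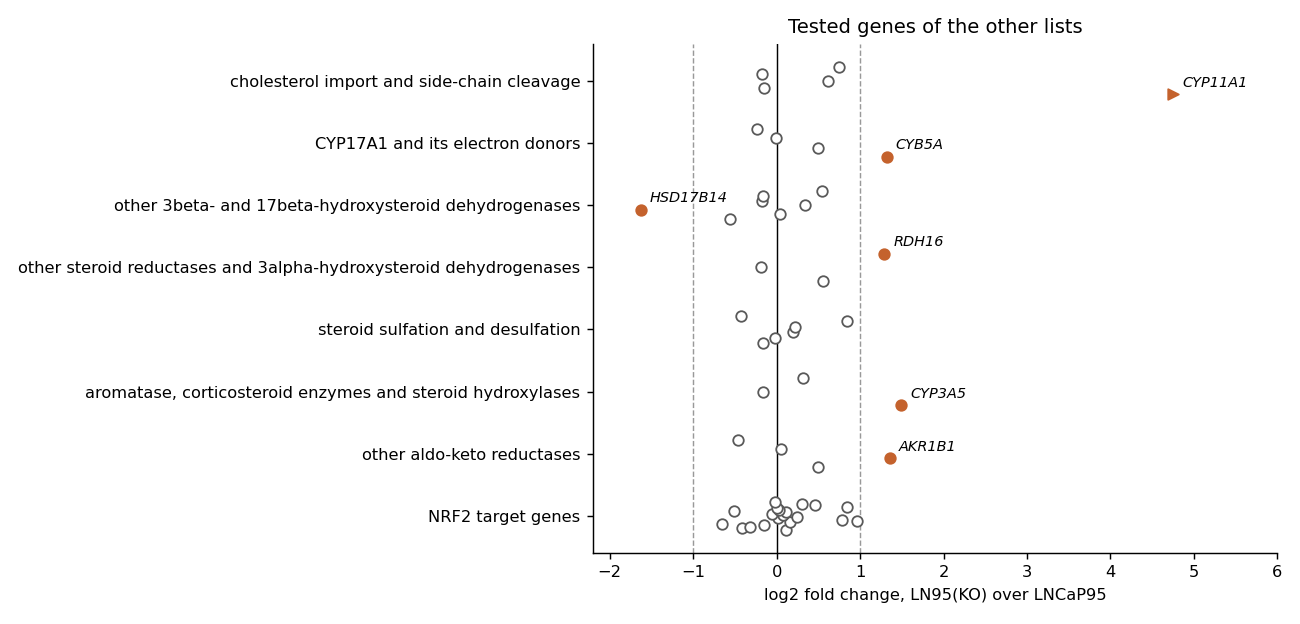
Log2 fold change, LN95(KO) over LNCaP95, of the tested genes reported here in each list of the steroid pathway, the other aldo-keto reductases and the NRF2 targets, with 1 point per gene, called genes filled and named, and dashed lines at a 2-fold change. CYP11A1 is drawn as an arrow because it had 0 counts in LNCaP95 (at least 26.9-fold), HSD17B14 at -1.63 is the lowest point, and the NRF2 targets drawn lie between the dashed lines.

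The genes lying beside the members were examined, to show how the members' surroundings on the chromosome behaved. Within 500 kb of a member body, 65 other genes were tested, of which 8 were called higher and 7 lower, 23.1% beside 18.0% of all genes. Of those called lower, UBE2QL1 and TUBAL3 passed the filter only through their LNCaP95 counts. Around HSD17B11, 1 of 6 was called. This was SPARCL1, a secreted matrix protein gene 82.1 kb away, which went from 3 and 1 counts to 200 and 149. Its log2 fold change was 6.39 (SE 0.36), and 7.31 without LNCaP95 replicate 1. SPARCL1 passed the filter only through its LN95(KO) counts, so no p is given for it. Around HSD17B4, which did not pass the test itself, TNFAIP8 at 52.8 kb rose from 47 and 51 to 439 and 507 counts (3.30, SE 0.13, edgeR adjusted p = 8.31e-13).

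PRIM1, the DNA primase subunit gene that overlaps HSD17B6, rose from 73 and 58 to 159 and 226 counts (1.58, SE 0.18, edgeR adjusted p = 8.38e-07). TMEM165, a Golgi protein gene 22.9 kb from SRD5A3, fell together with it, from 3160 and 3179 to 1289 and 1342 counts (-1.24, SE 0.05, edgeR adjusted p = 1.51e-12). UBE2QL1, 137 kb from SRD5A1, had 14 and 13 counts against 1 and 0. It was lower in LN95(KO) by a ratio of 26.4 with a counting interval of 4.35 to 1.08e+03. No p is given for UBE2QL1, which passed the filter only through its LNCaP95 counts. Named neighbours thus moved in the same direction as the member beside them, in the opposite direction, or where the member itself did not pass the test.

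**Figure D5:**
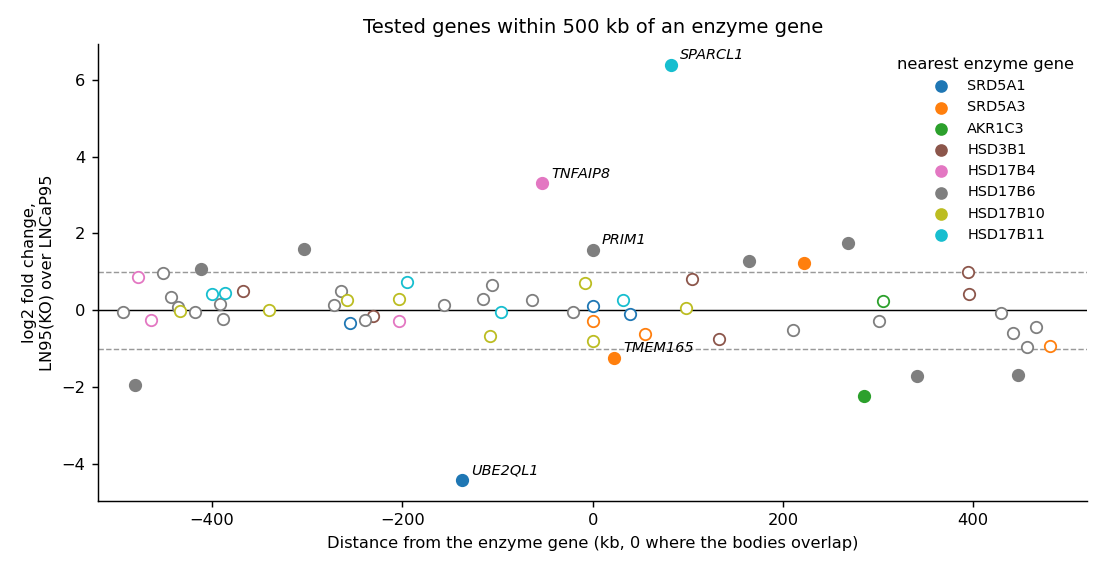
Log2 fold change, LN95(KO) over LNCaP95, of the tested genes reported here within 500 kb of an enzyme gene against their distance from it in kb (0 where gene bodies overlap), coloured by the nearest enzyme gene, with called genes filled and the 5 named neighbours labelled. SPARCL1 at 6.39 and TNFAIP8 at 3.30 stand high beside HSD17B11 and HSD17B4, and most points lie between the dashed lines at a 2-fold change.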

How the data were processed

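RNA was extracted from LNCaP95 and LN95(KO) cells, 2 libraries each, selected with oligo(dT) and sequenced on the DNBseq platform. The authors deposited raw read counts for each gene, made with HISAT2 (version 2.1.0) on hg19 and HTSeq on a GENCODE annotation, without strand. Reads on several genes or with several alignments are dropped by HTSeq. The table of the whole series and the single files held the same counts, with 0 differing cells. The 5 summary lines of each file entered neither library sizes nor tests. The share on no feature was 3.81% to 4.06% of entries, ambiguous reads 9.82% to 10.4%, reads of low quality 1.82% to 1.98% and reads aligned more than once 3.78% to 3.86%. Symbols matched 59858 identifiers, and 1022 were not matched (0.0594% of gene reads). Exons and gene positions came from GENCODE release 44 on GRCh37, a later release than the one used for the counts.

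Counts were tested with edgeR (version 4.0.16, R version 4.3.3, glmQLFit with robust estimation, TMM factors) after filterByExpr (minimum count 10, minimum total count 15), without covariates. The SE of a log2 fold change was its absolute value over the square root of F. The common biological coefficient of variation was 4.27%. Chi-square over its degrees of freedom between replicates was 2.31 and 3.31, above sampling noise. The fit was tested on simulated data with 200 changed genes. DESeq2 (version 1.42.0), used by the study, was an alternative, as were other scalings, no filter, protein-coding genes alone, glmTreat, no fold criterion, each library left out, other gene lengths and other distances.

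Named genes are all 10 members, the called genes and the most abundant gene per length of each list, and for genes within 500 kb the 3 nearest called in each direction. TUBAL3 and other called neighbours fall outside that rule and are not described. Some genes under the rule are not reported here. Members and lists were chosen with earlier results of these data known. Intervals are at 95%, and those on ratios of counts cover counting error only.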

Additional observations from a re-analysis of the deposited data

Results flagged for a closer look

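HSD3B1 was outside the tests because of its low counts, had 0 reads in LNCaP95 and had 33 reads in LN95(KO). The same was seen at the edge of detection for STAR with 4 reads, CYP19A1 (aromatase) with 5 reads and CYP3A7 with 5 reads in LN95(KO) against 0 in LNCaP95, where both LN95(KO) libraries had at least 1 read of each. The opposite was seen for AKR1B10, with 5 and 2 counts in LNCaP95 against 0 and 0 in LN95(KO), and for SLCO1A2, with 3 and 1 against 0 and 0. The share of reads that were not aligned, which is no part of the gene counts, was at least 7.71% in LN95(KO), above both LNCaP95 libraries (3.85% and 3.96%).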

How the results depend on the processing

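Of 371 values of single named genes under the alternatives, 337 kept their direction and their side of the threshold, 13 lost a call, 14 gained 1 and 7 changed sign. Of the 14 gained calls, 12 came with no fold criterion, a setting that can only add calls. That setting and glmTreat keep the main log2 fold changes, so neither could change a sign. Against a 2-fold null with glmTreat, the calls were 1 member, 1687 genes in all and 3 pathway genes. With no fold criterion they were 7 members, 9349 genes, 23 pathway genes and 41 genes beside members. Genes beside members called were 8 within 250 kb and 30 within 1000 kb. With each library left out in turn, the lowest and highest counts were 2 and 5 members, 2539 and 2777 genes, 5 and 5 pathway genes, and 12 and 18 genes beside members. The 5 members were called without LNCaP95 replicate 1 and were HSD17B11, AKR1C1, AKR1C2, AKR1C3 and HSD3B1. DESeq2 called 2 members, HSD17B11 and HSD3B1, and with no filter 3 were called, HSD3B1 being added. HSD3B1, CYP11A1, AKR1B1 and SPARCL1 enter filtered fits only through their LN95(KO) counts. LUM, UBE2QL1 and TUBAL3 enter them only through their LNCaP95 counts. HSD17B4 was at 0.01 with library totals. HSD17B6 was at 0.04 with library totals, 0.13 without LNCaP95 replicate 2 and 0.18 without LN95(KO) replicate 4, and between -0.22 and 0.18 over the libraries left out. CYB5R3 was at 0.05 with library totals, 0.01 without LNCaP95 replicate 1 and 0.03 without LN95(KO) replicate 3, and between -0.04 and 0.03 over the libraries left out. The cause was not tested. Ranks of levels per length stayed for 6 of 10 members with the longest transcript and 5 of 10 with the canonical transcript in LNCaP95, and for 8 of 10 with either in LN95(KO). In windows of 50 bases, shared sequence was 24.9% for AKR1C1, 36.0% for AKR1C2 and 6.09% for AKR1C3. No paired analysis was possible because LNCaP95 replicates are numbered 1 and 2 and LN95(KO) replicates 3 and 4. At 17330338 to 18813193 gene reads, low genes such as HSD17B6 and the AKR1C genes have wide intervals.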
